A study of Urochloa humidicola with 8 samples.

Results

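The 200 transcripts described here were those whose abundance differed most across 8 young leaf samples of the grass Urochloa humidicola, although each was present in every leaf. Abundance is given as CPM, the reads of a transcript per 1000000 reads of its library. Of 48695 assembled transcripts, 17896 reached 1 CPM in all 8 libraries, and 8032 of these also had a mean of at least 20 CPM and were not among the 100 transcripts with the highest means. From these 8032 eligible transcripts, the 200 with the largest SD of log2(CPM + 1) over the 8 libraries were taken, without the lignin label. The SD therefore chose the transcripts and is given as a description only, as is every pattern over the libraries that the same values make.

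Urochloa humidicola is a tropical forage grass, and the study sought genes associated with its production of lignin. Of the 8 samples, 4 carried the label high lignin and 4 the label low lignin, on the basis of lignin percentages from an earlier study that were not analysed here. The tissue was the second extended leaf. The labels enter the lignin class as the treatment and give no genotype, age, applied agent or sampling day. Nothing in them shows that replicates were different plants, and a p-value therefore sets the groups against sample-to-sample variation that can be partly technical. Replicates are numbered 1 to 4 within each group in accession order, and the numbers pair nothing.

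Lignin is a phenolic polymer that stiffens secondary cell walls and lowers the digestibility of forage. Grasses of this genus are commonly polyploid and often reproduce through apomixis, in which seed forms without fertilisation of the egg. In such plants a gene can be present in several near-identical copies, and an assembly may list alleles, copies and splice forms as separate transcripts, among which a quantifier divides the reads that fit more than one. Each transcript is known by its assembly number alone, written asmbl_ and digits. 0 of the names could be matched to a gene, so that no function, pathway, marker of leaf tissue or genome position is given for any of them, and no sequence is shown.

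Libraries held between 7717993 and 10805639 rounded reads. One of them, low lignin replicate 3, stood apart: over the 8032 eligible transcripts its mean Spearman correlation with the other 7 libraries was 0.558, against 0.702 to 0.758 for the other libraries. Values without this library are given beside the group comparisons that it moves.

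The 200 transcripts had SDs of log2(CPM + 1) between 1.52 and 2.94, with a median of 1.76, against a median of 0.52 over the eligible transcripts. The highest library exceeded the lowest by a median of 49.6-fold and by at least 15.1-fold, against a median of 2.99-fold over the eligible transcripts. In 36 of the 200 the ratio reached 100. Their mean level, with a median of 54.0 CPM, lay near that of the eligible transcripts, with 47.4 CPM.

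**Figure D1:**
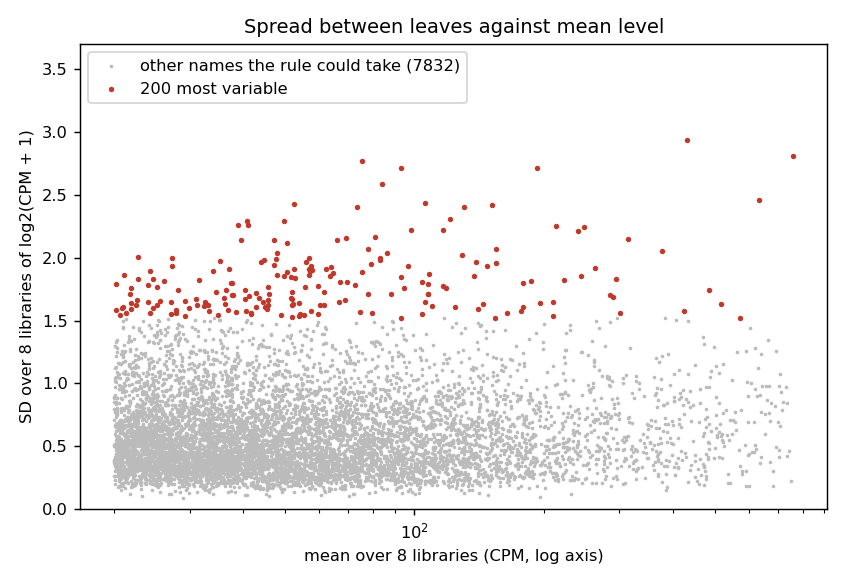
SD over the 8 libraries of log2(CPM + 1), on the vertical axis, against mean CPM, on a log axis, for the 8032 eligible transcripts, each a point. The 200 chosen transcripts (red) lie at SDs from 1.52 to 2.94 and spread over the range of means.

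Counting error was small beside these differences. The SD that Poisson counting alone would give on the same scale had a median of 0.11 over the 200 transcripts and a maximum of 0.20. The fewest reads behind any value were 9, for asmbl_4803 in high lignin replicate 4, which is 1.03 CPM with an exact 95% Poisson interval of 0.469 to 1.95 CPM. Such intervals treat the rounded estimates as counts and cover counting error only. They leave out any division of reads between entries and any difference between samples, and reads carried no molecular identifiers. At the threshold, asmbl_33138, asmbl_15758 and asmbl_47881, the last 3 chosen, had SDs of 1.523, 1.522 and 1.521, and asmbl_45003, asmbl_9184 and asmbl_35708, the first 3 left out, had 1.519, 1.518 and 1.517.

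The transcript with the largest spread, asmbl_23732, 2086 bases long, had 16.8, 10.7, 11.3 and 5.36 CPM in high lignin replicates 1 to 4 and 21.5, 10.2, 3362 and 7.22 CPM in low lignin replicates 1 to 4. A single leaf, low lignin replicate 3, was high, and the other 7 lay within a narrow band. Without that leaf its SD was 0.62, close to the median of the eligible transcripts.

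The second, asmbl_41784, 472 bases long, showed the reverse in the same leaf. It had 361, 391, 970 and 351 CPM in high lignin and 1719, 1079, 2.91 and 1225 CPM in low lignin. The lowest of the other 7 leaves stood at 351 CPM, so low lignin replicate 3 lay far under all of them. This was also the transcript with the highest mean CPM of the 200, and per length its mean level was 2140 TPM, the deposited unit that is scaled by effective length.

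For asmbl_40059, of 688 bases, 3 leaves were high and 5 were low. It had 8.89, 1.44, 119 and 4.22 CPM in high lignin and 6.30, 2.52, 169 and 295 CPM in low lignin. High lignin replicate 3 and low lignin replicates 3 and 4 formed the upper set, which crosses the lignin groups. Transcript asmbl_31663, of 911 bases, had 218, 67.1, 13.5 and 147 CPM in high lignin and 1.44, 247, 1.45 and 46.5 CPM in low lignin. Here low lignin replicates 1 and 3 were the low leaves, each near the minimum of 1 CPM that the choice of transcripts required.

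Transcript asmbl_9724, of 1072 bases, had 305, 159, 56.5 and 205 CPM in high lignin and 692, 1.82, 6.69 and 119 CPM in low lignin. The low lignin group thus held its highest value and its 2 lowest. Transcript asmbl_43941, of 2385 bases, had 1209, 1013, 1238 and 618 CPM in high lignin and 49.3, 406, 10.2 and 526 CPM in low lignin. It was the only one of the 10 transcripts with the largest SD whose lignin groups did not overlap. At the other end, asmbl_33138, of 1291 bases, had the third highest mean CPM of the 200 and a spread just past the threshold, with 1161, 418, 1100 and 544 CPM in high lignin and 230, 172, 54.7 and 893 CPM in low lignin. The remaining members of the first 10 (asmbl_31874, asmbl_15669, asmbl_30227 and asmbl_45630) ranged from 121-fold to 219-fold between the lowest and highest leaf, with high and low leaves in both lignin groups.

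**Figure D2:**
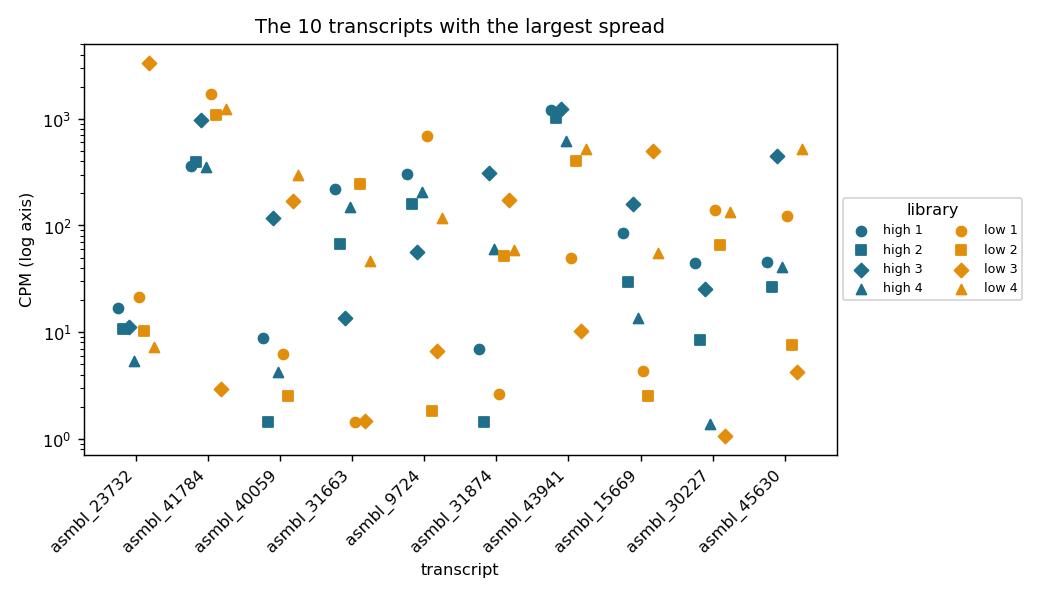
CPM on a log axis in each of the 8 libraries (blue, high lignin; orange, low lignin; a marker shape for each replicate) for the 10 transcripts with the largest SD. In asmbl_23732 a single low lignin leaf lies at 3362 CPM, while in most of the others the colours are mixed from top to bottom.

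How the leaves divided was described by the widest gap between neighbouring sorted values of log2(CPM + 1). In 104 of the 200 transcripts (52%) the gap set a single leaf apart, against 57.8% of the eligible transcripts. In 48 it separated 2 leaves from 6, in 36 it separated 3 from 5, and in 12 it divided the leaves evenly. The widest gap fell exactly between the lignin groups in 0 of the 200 and in 0.473% of the eligible transcripts.

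A single leaf was low in 72 transcripts (36%) and high in 32 (16%), whereas among the eligible transcripts the shares were 28.1% and 29.7%. Of these, low lignin replicate 3 accounted for 40 of the 72 and 14 of the 32. It was alone low in 20% of the 200 transcripts and in 8.94% of the eligible ones, and alone high in 7% and 16.4%. Its isolation thus took mostly the low form among the 200 and mostly the high form among the eligible transcripts, a description with no test. The next most often isolated leaf was low lignin replicate 4, alone low in 9 (4.5%) and alone high in 3 (1.5%). These shares lay near those of the eligible transcripts, 4.96% and 1.08%. High lignin replicate 1 was isolated in 0 of the 200 in either direction, against 1.38% (low) and 0.647% (high) of the eligible transcripts.

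**Figure D3:**
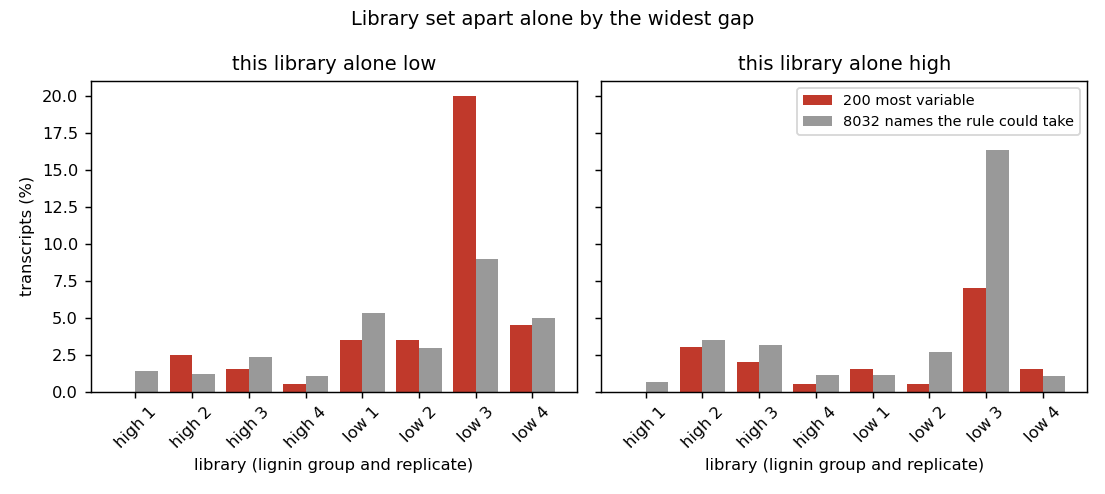
Percent of transcripts in which the widest gap set the named library apart alone, on the low side (left) or the high side (right), for the 200 most variable (red) and the 8032 eligible transcripts (grey). Low lignin replicate 3 has the tallest bars on both sides, 20% against 8.94% on the low side and 7% against 16.4% on the high side.

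In the 40 transcripts low in low lignin replicate 3 alone, that leaf had a median of 2.96 CPM and the lowest of the other 7 leaves a median of 26.6 CPM. Together they took 0.0229% of its reads and between 0.503% and 0.806% of the reads of the other libraries. In the 14 high there alone, it had a median of 384 CPM and the highest other leaf a median of 42.0 CPM, and they took 1.03% of its reads against 0.0303% to 0.0763% elsewhere. One of the 14 was asmbl_38844, of 2163 bases, named after its values were seen. It had 3.24, 1.77, 4.66 and 2.62 CPM in high lignin and 5.19, 1.41, 290 and 2.31 CPM in low lignin.

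Without low lignin replicate 3, 129 of the 200 still had an SD at or above 1.52, and 132 of the 200 were chosen again when the rule was applied to the other 7 libraries.

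Other leaves were set apart in single transcripts. For asmbl_32513, of 721 bases, low lignin replicate 1 had 165 CPM, and the other leaves had 2.62, 1.55, 2.59 and 2.17 CPM in high lignin and 3.33, 1.74 and 2.87 CPM in low lignin replicates 2 to 4. For asmbl_202, of 1601 bases, low lignin replicate 4 had 8.14 CPM, and the other leaves had 183, 187, 236 and 241 CPM in high lignin and 227, 276 and 207 CPM in low lignin replicates 1 to 3. In both, 7 leaves of both lignin groups lay close together and a single leaf departed.

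Leaves of high lignin also stood apart. High lignin replicate 2 had 149 CPM of asmbl_37782, of 3023 bases, and the other leaves lay between 3.84 and 11.1 CPM. High lignin replicate 4 had 709 CPM of asmbl_37180, of 1723 bases, and the other leaves lay between 13.3 and 66.3 CPM. High lignin replicate 3 had 236 CPM of asmbl_11653, of 1053 bases, where the others were not close together and ranged from 1.55 to 35.7 CPM. Low lignin replicate 2 was lowest in asmbl_29875, of 2586 bases, at 1.62 CPM, with the other low lignin leaves at 21.8, 21.7 and 29.7 CPM and the high lignin leaves at 85.5, 83.4, 70.4 and 50.3 CPM.

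The 200 transcripts fell into 18 clusters of like profile (average linkage on 1 minus the Pearson correlation, split at a distance of 0.5), of which the 3 largest held 100 transcripts. These clusters were made from the values that chose the transcripts and carry no test. The largest, of 46 transcripts, was low in low lignin replicates 1 and 3. Its median levels were 151, 80.0, 133 and 120 CPM in high lignin and 14.3, 83.0, 6.54 and 78.8 CPM in low lignin. It held asmbl_31663 and asmbl_43941.

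The second cluster, of 33 transcripts, was high in 1 leaf of each lignin group. Its median levels were 20.5, 26.5, 105 and 13.1 CPM in high lignin and 21.5, 3.94, 6.78 and 74.0 CPM in low lignin, so that high lignin replicate 3 and low lignin replicate 4 were the high leaves. The third, of 21 transcripts including asmbl_41784, was low in low lignin replicate 3, with a median of 2.52 CPM against medians of 21.3 to 104 CPM in the other leaves. The fourth, of 13 transcripts including asmbl_40059, joined high lignin replicate 3 with low lignin replicates 3 and 4, at medians of 119, 91.9 and 186 CPM, against 6.06 to 28.1 CPM elsewhere.

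Of the smaller clusters, some followed 1 leaf. The fifth, of 11 transcripts including asmbl_23732, had a median of 296 CPM in low lignin replicate 3 and 9.07 to 16.5 CPM elsewhere. The seventh, of 10 transcripts, had 147 CPM in high lignin replicate 2 and 4.03 to 32.8 CPM elsewhere. A cluster of 5 transcripts had 6.63 CPM in high lignin replicate 2 and 68.8 to 324 CPM elsewhere, and one of 3 transcripts had 8.14 CPM in low lignin replicate 4 and 91.9 to 276 CPM elsewhere. Others combined several leaves: the sixth, of 10 transcripts, had medians of 67.4 and 118 CPM in low lignin replicates 3 and 4, 3.65 CPM in high lignin replicate 4 and 12.3 to 37.5 CPM elsewhere. Variable transcripts therefore did not follow a common order of the leaves. The widest gap took 66 different combinations of a set of leaves and its side, low, high or even, over the 200. The same count was not made for the eligible transcripts.

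**Figure D4:**
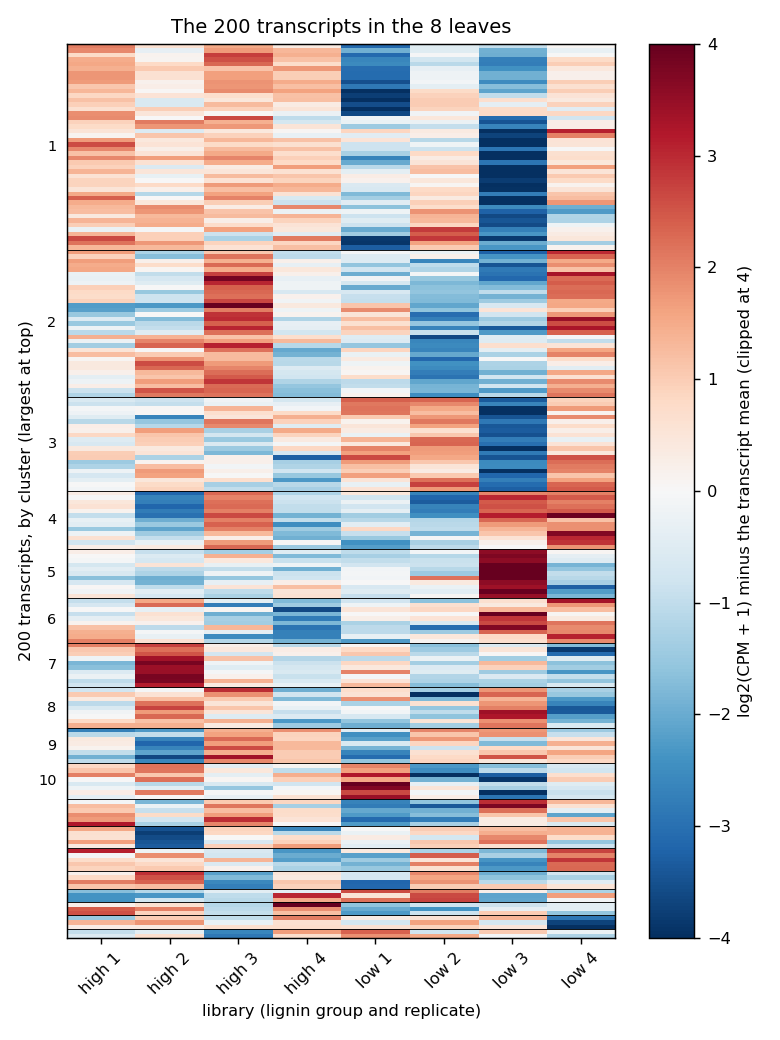
Log2(CPM + 1) minus each transcript's mean (colour, clipped at 4 on either side) for the 200 transcripts (rows, grouped by cluster, the largest at the top, clusters of 8 or more numbered) in the 8 libraries (columns). The blue blocks in low 1 and low 3 mark the first cluster, and the dark red blocks in low 3 and in high 2 mark the fifth and seventh.

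Principal components summarised the 200 profiles. The first, with 33.9% of the variance, carried a weight of 0.91 for low lignin replicate 3 and between -0.25 and 0.06 for the other leaves. The second, with 21.9%, set high lignin replicate 3 (0.56) and low lignin replicate 4 (0.46) against low lignin replicates 2 (-0.44) and 1 (-0.36) and high lignin replicate 2 (-0.31). Over the eligible transcripts the first component had 32.9% of the variance and a weight of 0.91 for the same leaf. With that leaf left out, the first component of the 200 had 33.2% of the variance and set high lignin replicate 3 (0.57) and low lignin replicate 4 (0.50) against low lignin replicates 2 (-0.40) and 1 (-0.39).

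Libraries resembled one another less over the 200 transcripts than over the eligible ones, as the choice of transcripts requires. The mean Spearman correlation was 0.422 for the 6 pairs within high lignin, 0.109 for the 6 within low lignin and 0.234 for the 16 between groups. Over the eligible transcripts these means were 0.788, 0.643 and 0.696, in the same order of size. The most alike pair was high lignin replicates 1 and 4, at 0.628, and the next was high lignin replicate 4 with low lignin replicate 2, at 0.626. For low lignin replicate 3 the mean over its 7 pairs was -0.01. Without it the mean was 0.285 for the 3 remaining pairs within low lignin and 0.302 for the 12 between groups, against 0.757 and 0.735 over the eligible transcripts.

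The 200 transcripts varied more among the low lignin leaves than among the high lignin leaves. The median SD of log2(CPM + 1) was 2.03 within low lignin and 1.32 within high lignin, and 149 of the 200 (74.5%) had the larger SD in low lignin. Among the eligible transcripts 71.8% did. Without low lignin replicate 3 the numbers fell to 123 of the 200 and 54.1% of the eligible transcripts, and the median within low lignin was 1.67. Together the 200 took 2.03%, 1.78%, 2.53% and 1.52% of the reads in high lignin and 1.39%, 1.58%, 2.12% and 2.18% in low lignin, so that the groups overlapped.

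Some features were not used in the choice. The 200 transcripts were shorter, with a median length of 1228 bases against 1517 over the eligible transcripts, and 11% of them were under 500 bases against 5.29%. Their estimated reads were whole numbers, within 0.001 of a read, in every library for 50 of the 200 (25%), against 35.6% of the eligible transcripts. In the other 150, part of the reads was divided between entries, so that their values depend on that division. The median SD was 1.72 for the 50 and 1.78 for the 150. Of the transcripts given above, asmbl_23732, asmbl_40059, asmbl_37180 and asmbl_11653 were among the 50, and asmbl_41784, asmbl_31663 and asmbl_43941 among the 150.

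Of the 200, 11 had another of the 200 at an adjacent number, in 6 pairs. The 8032 eligible transcripts held 1687 such pairs, and the number expected in a random choice of 200 was not computed. In 5 of the 6 the profiles ran together, with Pearson correlations of log2(CPM + 1) between 0.971 and 0.990 over the 8 libraries, which share depth and scaling. Among the 1687 adjacent pairs of eligible transcripts the median was 0.265. The closest pair, asmbl_23465 of 352 bases and asmbl_23466 of 792 bases, had r = 0.990. The first had 47.6, 6.74, 191 and 27.0 CPM in high lignin and 27.3, 4.44, 398 and 265 CPM in low lignin. The second had 161, 20, 590 and 72.6 CPM in high lignin and 110, 20.4, 738 and 801 CPM in low lignin. Both were high in the same 3 leaves, high lignin replicate 3 and low lignin replicates 3 and 4.

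The longest run was asmbl_34255, asmbl_34256 and asmbl_34257, of 2654, 2542 and 2280 bases. The last had 142, 9.50, 454 and 47.0 CPM in high lignin and 54.8, 14.0, 557 and 434 CPM in low lignin, and the other members of the run followed it at lower levels. These 3 entries and the pair before them belong to the fourth cluster. The files do not show whether such entries come from a single locus, and they may not be separate observations. In the remaining pair, asmbl_3563 and asmbl_3564, both short, the profiles were unrelated (r = 0.07). The first had 2.72, 3.87, 63.6 and 84.8 CPM in high lignin and 16.5, 92.1, 79.7 and 7.77 CPM in low lignin, while the second was highest in low lignin replicate 3, at 643 CPM.

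Neighbouring numbers were also examined by their sum. When the reads of a transcript were added to those of the entries numbered 1 below and 1 above it, the SD of the sum was under 0.5 of the SD of the transcript alone in 33 of the 200 (16.5%), against 4.87% of the eligible transcripts. A lower SD follows in part from the choice, since the 200 were taken for a large SD, and an abundant neighbour also lowers it. The count of 33 therefore does not show that neighbours mirrored one another. For asmbl_42345, of 3202 bases, the ratio was lowest, at 0.149. It had 45.1, 49.5, 2.20 and 39.5 CPM in high lignin and 1.44, 41.8, 43.5 and 29.8 CPM in low lignin, whereas asmbl_42344, of 3213 bases, had 46.9 CPM in high lignin replicate 3, 37.9 CPM in low lignin replicate 1 and at most 0.606 CPM elsewhere. The sum of the entries lay between 30.2 and 54.7 CPM in the 8 leaves. The next lowest ratio was 0.168, for asmbl_21033, of 1003 bases. It had 4.19, 14.7, 15.5 and 4.68 CPM in high lignin and 45.4, 29.4, 1.45 and 65.8 CPM in low lignin. Its neighbour asmbl_21032 had 46.1, 29.7, 51.0 and 45.9 CPM in high lignin and 3.09, 21.2, 62.8 and 6.76 CPM in low lignin. For asmbl_11242, of 2247 bases, the ratio was 0.182, but its 1.45 to 89.5 CPM lay beside asmbl_11241 at 63.8 to 320 CPM, which was above it in each of the 8 leaves. In the other direction, the SD of the sum stayed above 0.95 of the transcript's own in 52 of the 200.

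The comparison of high with low lignin asked which transcripts differed between the groups. It was fitted with edgeR's quasi-likelihood test to 27015 transcripts, of which all 200 were part, and p-values were adjusted over the 27015. After adjustment 0 of the 200 passed the threshold of 0.05 in either direction, and 0% of all transcripts tested did so. The smallest adjusted p among the 200 was 0.827. Before adjustment, 30 of the 200 (15%) had a p under 0.05, against 5.85% of all transcripts tested and 7.94% of the eligible ones. The 200 were chosen for a large SD of the same values, so this difference in shares cannot be read as a link with lignin. Whether that choice raised the count was not tested. Of the 30, 20 had higher and 10 had lower levels in high lignin (10% and 5% of the 200, against 3.16% and 2.69% of all tested). Without low lignin replicate 3 the excess of higher over lower was gone: of 34 transcripts (17%, against 8.66% of all tested), 16 had higher and 18 had lower levels (4.26% and 4.4% of all tested). DESeq2 on the same 27015 transcripts called 3 of the 175 of the 200 to which it gave an adjusted p, against 0.62% of all those to which it gave one. The voom fit of limma called 0 of the 200 and 0 of all tested. Before adjustment it put 28 of the 200 under 0.05, against 1829 of all 27015 tested.

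On a scale that does not grow with the spread, the 200 lay near the background. The median percent of the log2 CPM variance that lay between the lignin groups was 11.6% for the 200, 10.4% for all tested and 11.3% for the eligible transcripts. Fold changes were larger, with a median absolute log2 fold change of 1.02 against 0.41 over all tested, and so were their standard errors, with medians of 1.03 and 0.53. The median log2 fold change, high minus low, was 0.29 among the 200 and -0.05 over all tested, with 111 above 0 and 89 below. Its sign turned only without high lignin replicate 3, where the median was -0.063, with 96 above and 104 below. Without any other single leaf the median stayed above 0. It was smallest without low lignin replicate 1, at 0.10, and largest without low lignin replicate 4, at 0.68.

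The 2 smallest p-values in each direction came from transcripts of differing profile. Transcript asmbl_43837, of 2220 bases, had 10.8, 53.3, 43.0 and 33.5 CPM in high lignin and 8.51, 1.31, 8.82 and 6.02 CPM in low lignin. The groups did not overlap, and low lignin replicate 2 was the lowest leaf. High lignin exceeded low lignin by 2.47 on the log2 scale (standard error 0.64; edgeR adjusted p = 0.827, DESeq2 adjusted p = 0.0333). Transcript asmbl_15758, of 889 bases, had 380, 78.9, 324 and 248 CPM in high lignin and 25.2, 70.2, 25.4 and 80.4 CPM in low lignin. Here high lignin replicate 2 lay just under low lignin replicate 4. The log2 difference, high minus low, was 2.31 (standard error 0.64; edgeR adjusted p = 0.827, DESeq2 adjusted p = 0.0469).

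In the opposite direction, asmbl_7383, of 1019 bases, had 7.43, 5.96, 8.29 and 14.6 CPM in high lignin and 24.2, 121, 850 and 11.6 CPM in low lignin. Low lignin replicate 3 was far above the rest, and low lignin replicate 4 lay within the high lignin range. The log2 difference, high minus low, was -4.60 (standard error 1.25; edgeR adjusted p = 0.827, DESeq2 adjusted p = 0.0036). Without low lignin replicate 3 it was -2.56 (standard error 0.76; edgeR adjusted p = 0.472). Transcript asmbl_8862, of 1000 bases, had 29.6, 44.2, 73.9 and 76.4 CPM in high lignin and 609, 428, 117 and 41.3 CPM in low lignin. The log2 difference was -2.45 (standard error 0.79; edgeR adjusted p = 0.827, DESeq2 adjusted p = 0.106). The leaf set apart alone was low lignin replicate 3 in 9 of the 30 transcripts with an unadjusted p under 0.05. The same leaf was set apart alone in 54 of the 200 transcripts, and whether these shares differed was not tested.

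In 14 of the 200 transcripts (7%) the lignin groups did not overlap, against 4.26% of all tested and 4.91% of the eligible transcripts. High lignin lay above in 13 of the 14 (6.5% of the 200, against 2.82% of all tested and 3.7% of the eligible transcripts). Of these 13, 11 belonged to the first cluster, the one low in low lignin replicates 1 and 3, and low lignin replicate 1 or 3 was the lowest leaf in 5 and 6 of them. The margin was narrow: the lowest high lignin leaf exceeded the highest low lignin leaf by a median of 1.22-fold, and by under 1.5-fold in 10 of the 13. Entries asmbl_16871 and asmbl_954, both of 786 bases, had the same values in every library, so that the 14 hold 13 distinct profiles.

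The first of these by spread after asmbl_43941 was asmbl_5290, of 1714 bases, with 167, 154, 289 and 251 CPM in high lignin and 58.5, 93.5, 3 and 97.1 CPM in low lignin. The lowest leaf was low lignin replicate 3, and the other low lignin leaves lay under the high lignin leaves by less. Transcript asmbl_27634, of 1796 bases, had 534, 168, 345 and 321 CPM in high lignin and 79.9, 77.6, 18.1 and 139 CPM in low lignin, where 3 of the 4 low lignin leaves were under 80 CPM. High lignin lay below in 1 transcript (1.45% of all tested did so), asmbl_4803, of 1446 bases, with 23.8, 19.0, 25.1 and 1.03 CPM in high lignin and 34.6, 43.2, 61.4 and 58.1 CPM in low lignin.

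**Figure D5:**
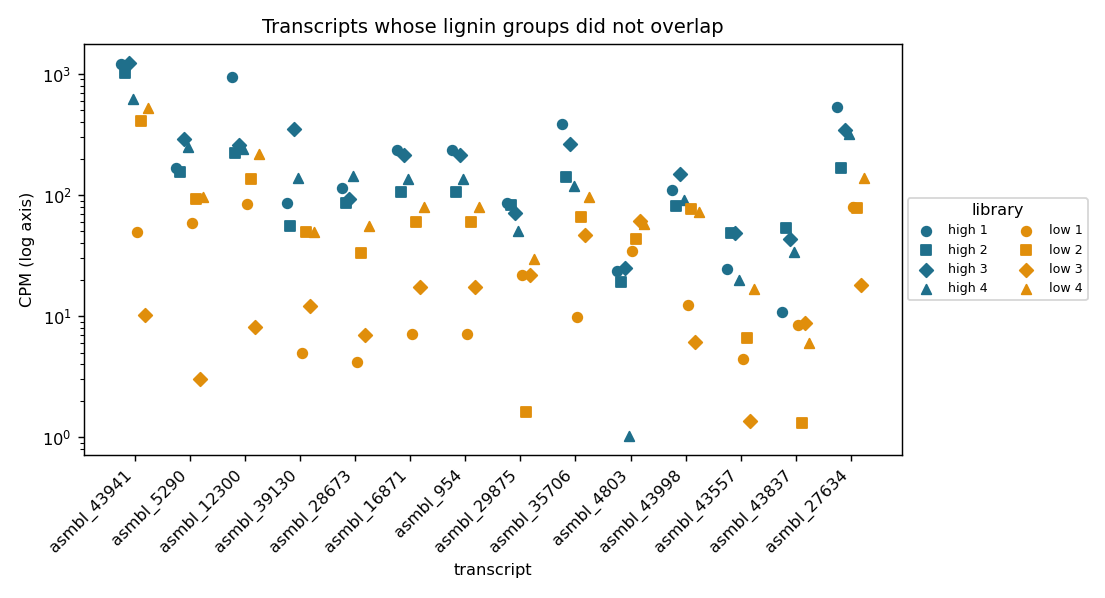
CPM on a log axis in each of the 8 libraries (blue, high lignin; orange, low lignin) for the 14 transcripts whose lignin groups did not overlap, ordered by SD. In 13 the blue points lie above the orange ones, often by a small margin, and low 1 or low 3 is the lowest point in 11.

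These counts depended on scaling and on single leaves. With RLE or TMM scaling in place of library totals, 10 of the 200 had groups that did not overlap. Without low lignin replicate 3, 24 of the 200 (12%) had groups that did not overlap, 16 with high lignin above and 8 below, against 13.2% of the eligible transcripts. Without low lignin replicate 4 there were 28 (14% against 11.2%), and without high lignin replicate 2 there were 23 (11.5% against 7.51%). With fewer leaves the condition is easier to meet, in the background as in the 200.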

How the data were processed

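Stranded mRNA libraries from 8 young leaf samples were sequenced on an Illumina HiSeq instrument, per the labels' protocols. Salmon 0.7.2, StringTie 2.0.4 and FastQC 0.11.8 appear in the submitters' processing notes, with no role stated. The sources used here do not state how transcripts were assembled or filtered, or on which build. The deposited files hold estimated counts as quantified, with fractions and no scaling, per the file headers. They also hold the authors' TPM, which corrects for effective length and totals 1000000 in each library. Estimated counts were rounded, and CPM was taken on library totals. The 200 members and the clusters were chosen with earlier results of these data known.

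High and low lignin (4 libraries each) were compared with edgeR 4.0.16 in R 4.3.3: filterByExpr, TMM scaling, quasi-likelihood test, group as the only term, Benjamini-Hochberg adjustment over all transcripts tested, two-sided, threshold 0.05. Standard errors divide each log2 fold change by the root of its F statistic. Alternatives were DESeq2 1.42.0, limma 3.58.1 with voom, other scaling, filters, pseudocounts and left-out libraries. No pair of libraries agreed within sampling noise (smallest chi-square per degree of freedom 30.3). Transcripts to name were the 10 with the largest SD, the 3 with the highest mean, the 2 with the smallest p in each direction, the widest single-library gap for each library, the ranks beside the threshold, the longest run of numbers and the most and least alike adjacent pair. Those whose groups did not overlap, those called by DESeq2, asmbl_38844 and the neighbour examples were named after their values were seen.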

Additional observations from a re-analysis of the deposited data

Results flagged for a closer look

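Among the 29 transcripts named by rule and the share of reads in the 200, 60 checks asked whether the highest or lowest leaf of a lignin group lay far from the nearest other leaf of its group, as a share of the group's range (Dixon's criterion at the 95% level for 4 samples). The scale was log2(CPM + 1) for the transcripts and percent of reads for the share of reads. Chance passes about 5% of such checks in values not chosen beforehand. These transcripts were chosen by the spread of the same values, and asmbl_23732, asmbl_32513, asmbl_29875 and asmbl_202 were named for a leaf set apart, so the number that passed cannot be read against that share. Of the 60, 7 passed. The leaf apart was low lignin replicate 3 in asmbl_23732 (highest, share of range 0.832), in asmbl_41784 (lowest, 0.924) and in asmbl_3564 (highest, 0.975). High lignin replicate 3 was the highest of its group in asmbl_41784 (0.895). Low lignin replicate 1 was highest in asmbl_32513 (0.889), low lignin replicate 2 lowest in asmbl_29875 (0.877) and low lignin replicate 4 lowest in asmbl_202 (0.916).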

How the results depend on the processing

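No paired analysis was possible because the replicate numbers follow accession order and tie no high lignin sample to a low lignin one. The count of the 200 at an adjusted p of 0.05 was 0 under other scaling, without the filter, with limma and with 1 library left out (0 to 0), and 3 with DESeq2. At an unadjusted p under 0.05 the 30 became 19 to 44 with 1 library left out and stayed within 1.5 times otherwise. The 19 came without high lignin replicate 1 (9.5% of the 200, against 3.98% of all tested). The 44 came without low lignin replicate 4 (22%, against 7.71% of all tested). With 1 library left out, those with higher levels in high lignin numbered 13 to 33 and those with lower levels 6 to 18. The 13 came without high lignin replicate 1 (597 of all 28419 tested) and the 33 without low lignin replicate 4 (1382 of 28469). The 6 came without high lignin replicate 1, 2 or 3 (534 of 28419, 575 of 28387 and 677 of 28528). The 18 came without low lignin replicate 3 (1244 of 28285). With limma the numbers were 24 and 4 (1206 and 623 of 27015). The median log2 fold change of the 200, 0.29, turned to -0.063 without high lignin replicate 3, reached 0.68 without low lignin replicate 4 and was 0.73 with limma; the cause was not tested. Groups that did not overlap numbered 14, and 14 to 28 with 1 library left out. The 14 without high lignin replicate 1 were 7% of the 200, against 6.36% of the eligible transcripts. The count was 10 with RLE scaling and 10 with TMM scaling, the latter added after seeing the data. The share of the eligible transcripts was not taken under those scalings. Of the 200, 100 were chosen again on TPM, 28 without the minimum of 1 CPM in every library, and 132 to 181 with 1 library left out. The counts of transcripts with 1 leaf apart and with low lignin replicate 3 apart stayed within 1.5 times (100 to 124 and 52 to 75 with 1 library left out). The neighbour sum had an SD under that of the last transcript chosen in 123 of the 200. All 200 were chosen for an SD at or above that value, so a fall below it follows in part from the choice. The same count was not made for the eligible transcripts. The count of 123 became 158 with names up to 2 numbers away and 131 with a pseudocount of 0.1. The neighbour counts of 33 and 52 given earlier were not repeated under other settings. The mean share of reads in the 200 was 1.97% in high lignin and 1.82% in low lignin. As a share of TPM the means were 2.34% and 2.43%, so that the order of the groups turned with the unit. Values near 1 CPM rest on about 10 reads.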
